A study of Mus musculus with 4 samples.

Results

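The chemokine receptors of the CXC, CX3C and XC classes were examined in BALF cells, which are washed out of the airways and alveoli. Members were the 9 genes Cxcr1, Cxcr2, Cxcr3, Cxcr4, Cxcr5, Cxcr6, Cx3cr1, Xcr1 and Ackr3, taken by name from 20832 genes named on a one-color whole mouse genome array, and every non-control probe whose accession maps to one of them was used. They are covered by 11 of 39429 probes, of which 10 probes of 8 genes were tested and 1, for Ackr3, was well above background on no array and could not be tested.

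The arrays compared S1pr2-/- mice, which carry a targeted disruption of the gene for the sphingosine-1-phosphate receptor S1PR2, with wild-type littermates, 2 arrays per genotype from independent RNA samples. Both genotypes were of a mixed background backcrossed to C57BL/6J once, and the methods give an age of 8 to 10 weeks. Both received bleomycin, a DNA-damaging drug that causes lung injury and fibrosis, intraperitoneally and repeatedly at 0.035 U/g, and the cells were taken at day 22 by the sample records. There were no arrays of saline-administered mice, so the effect of bleomycin itself was not measured, and the sources used here do not give the number of mice behind each array. The disruption was present in all cells of these mice and not in one cell type.

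All values are log2 of the background-corrected spot intensity over the 75th percentile of its array, so a value of 0 is that percentile and a difference of 1 is a doubling. Values belong to one probe and are not compared between genes. Per array, 67.4% to 72.1% of probes exceeded the background clearly, and no spot was saturated (0 on each array). The targeted gene went against its label. The S1pr2 probe gave -0.13 and -0.16 in wild-type against 2.67 and 2.54 under the S1pr2-/- label. Its log2 fold change was 2.75 (standard error 0.072, unadjusted p = 1.88e-05 and adjusted p = 0.332 from limma). Whether this probe lies within the disrupted part of the gene is not known here. Exchanged labels were not tested and would turn every direction below, all of which follow the labels. The sample records call the cells alveolar macrophages, and the markers of these cells were well above background on all 4 arrays (all 13 probes of 11 genes, such as Chil3, Ear2 and Marco), but markers of T cells, B cells, dendritic cells, neutrophils and epithelium were also above background. In such mixed cells, fewer cells of a type and less RNA per cell cannot be told apart.

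Chemokine receptors are G protein-coupled receptors that steer leukocytes along gradients of small secreted proteins, the chemokines. The CXC receptors are mostly found on neutrophils and lymphocytes, Cx3cr1 on monocytes, macrophages and some lymphocytes, and Xcr1 on dendritic cells that present antigen to CD8 T cells. Most couple to Gi proteins, while Ackr3 is an atypical receptor that takes up its ligand through arrestin. In the injured lung they are best known for guiding neutrophils (Cxcr1, Cxcr2), effector T cells (Cxcr3, Cxcr6) and monocytes (Cx3cr1).

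The promoters of the 3 receptor genes with a promoter entry whose arrays did not overlap between genotypes are printed first, because the differences described below concern their RNA. Each is 300 bases from RefSeq (GRCm38.p6), from 250 bases before to 50 after the gene start, read 5′ to 3′ on the strand of the gene. Of the 9 members, 8 had an entry, and Cxcr5 had none. Capitals mark exact matches to motifs searched on both strands, in which a match on the other strand appears reversed and complemented: GAGGAA (the core of ETS factors such as PU.1), TTGCNNAA (C/EBP), TGTGGT (RUNX), the STAT6-type palindrome and GGGCGG (the GC box). Cxcr1 lies at chr1:74194582-74194881 on the minus strand, Cxcr2 at chr1:74153744-74154043 on the plus strand, and Cx3cr1 at chr9:120068247-120068546 on the minus strand.
Cxcr1: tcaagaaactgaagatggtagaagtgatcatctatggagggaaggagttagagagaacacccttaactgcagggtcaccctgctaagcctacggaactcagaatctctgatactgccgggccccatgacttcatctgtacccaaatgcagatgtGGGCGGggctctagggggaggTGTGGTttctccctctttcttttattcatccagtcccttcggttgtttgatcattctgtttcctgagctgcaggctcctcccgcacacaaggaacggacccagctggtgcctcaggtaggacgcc
Cxcr2: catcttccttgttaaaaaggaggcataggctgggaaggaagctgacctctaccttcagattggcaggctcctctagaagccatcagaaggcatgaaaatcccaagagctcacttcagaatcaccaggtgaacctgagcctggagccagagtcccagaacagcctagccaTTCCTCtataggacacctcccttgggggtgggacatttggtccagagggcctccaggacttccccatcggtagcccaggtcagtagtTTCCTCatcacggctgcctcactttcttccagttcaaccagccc
Cx3cr1: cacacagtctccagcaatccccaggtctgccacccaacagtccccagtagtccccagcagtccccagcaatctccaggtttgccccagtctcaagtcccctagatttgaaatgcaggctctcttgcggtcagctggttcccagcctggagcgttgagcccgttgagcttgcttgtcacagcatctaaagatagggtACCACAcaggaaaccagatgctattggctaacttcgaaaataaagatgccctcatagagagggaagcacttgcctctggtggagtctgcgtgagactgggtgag

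The Cxcr1 promoter held 1 GC box and 1 RUNX match, at positions -96 and -75 from the gene start. The Cxcr2 promoter held 2 matches to the ETS core, at -81 and 7, and neither a GC box nor a RUNX match. The Cx3cr1 promoter held 1 RUNX match, at -54. None of these 3 held a C/EBP or STAT6 match. Such letters are common: among 32851 promoters of the same length, 28.28% hold the ETS core, 16.76% the RUNX core, 35.66% the GC box, 10.8% the C/EBP motif and 6.953% the STAT6 motif. Cxcr1 and Cxcr2 are neighbouring protein-coding genes on chromosome 1, and Cxcr6 and Xcr1 neighbour each other on chromosome 9, with Cx3cr1 elsewhere on that chromosome.

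None of the 10 tested receptor probes differed between the genotypes at an adjusted p under 0.05 from limma with Benjamini-Hochberg adjustment, nor did any of the 27154 probes tested (0%). At an unadjusted p under 0.05, 2 receptor probes had lower values on the arrays labelled S1pr2-/- (Cxcr2 and Cxcr5) and 2 were higher (Cxcr1 and one probe of Cx3cr1). Over all probes tested, 5.59% were lower and 3.99% higher at that level. Both arrays labelled S1pr2-/- lay below both wild-type arrays for 2 of 8 receptor genes and above them for 2 of 8, against 21.9% and 22.2% of 15426 genes. The median log2 fold change of the 10 receptor probes was -0.21, beside -0.0030 over all probes tested. With 2 arrays against 2, an exact two-sided permutation test cannot give a p under 0.33, so every value below is limited in precision by how few arrays there were.

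**Figure D1:**
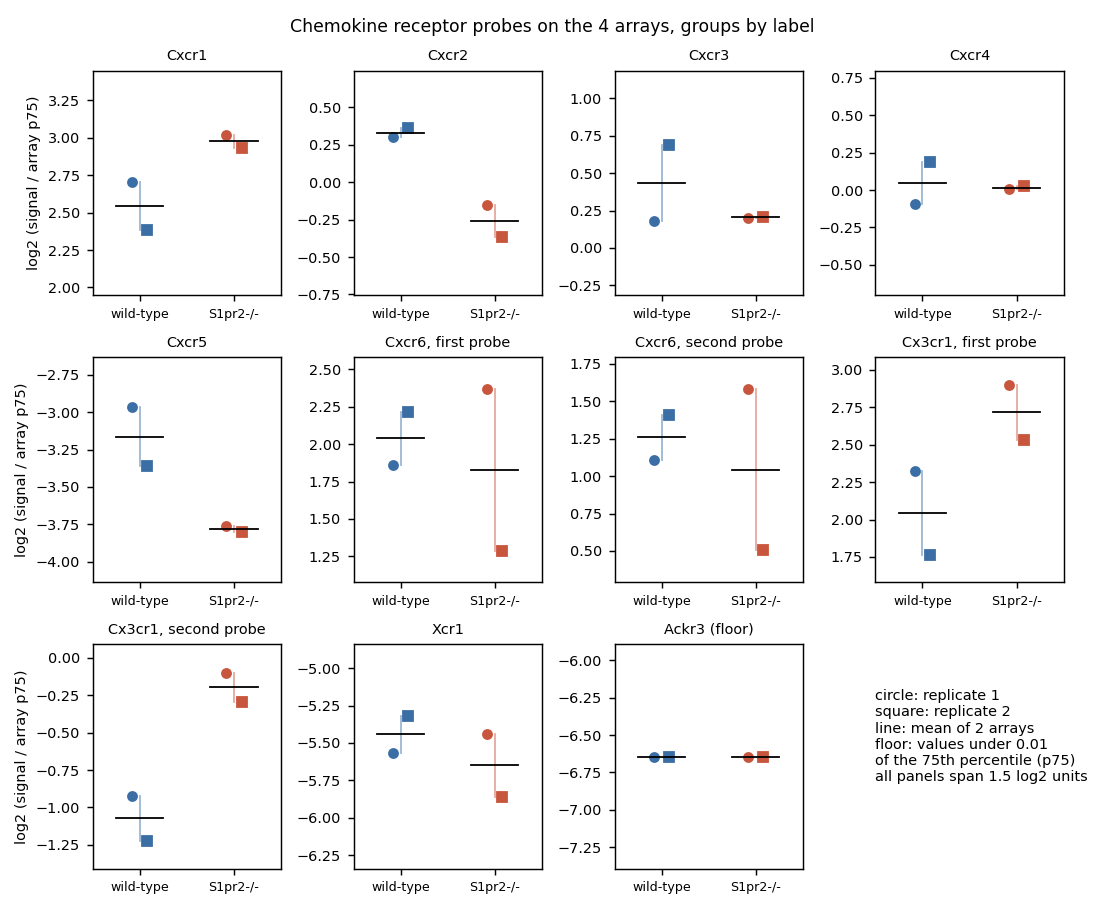
Values of the 11 receptor probes on each array, as log2 of signal over the 75th percentile of the array (p75), with circles for replicate 1, squares for replicate 2 and a line for the mean of 2 arrays. The genotypes do not overlap for Cxcr1, Cxcr2, Cxcr5 and both probes of Cx3cr1, the 2 arrays labelled S1pr2-/- lie far apart for Cxcr6, and Ackr3 is at the floor on every array.

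Cxcr1 and Cxcr2, the receptors that draw neutrophils to the CXC chemokines of inflamed tissue, lay in opposite directions between the genotypes, with neither past the adjusted threshold. The Cxcr1 probe gave 2.70 and 2.38 in wild-type against 3.02 and 2.93 under the S1pr2-/- label. Both arrays labelled S1pr2-/- were above both wild-type arrays, and the wild-type arrays differed more from each other than the other two did. The log2 fold change was 0.43 (standard error 0.14, 95% confidence interval 0.0089 to 0.86, unadjusted p = 0.0474 and adjusted p = 0.521 from limma), which is 1.35-fold. The Cxcr2 probe gave 0.30 and 0.36 in wild-type against -0.15 and -0.37 under the S1pr2-/- label. Here both arrays labelled S1pr2-/- were below both wild-type arrays, and the gap between genotypes was wider than the distance between arrays of one genotype. The log2 fold change was -0.59 (standard error 0.10, 95% confidence interval -0.90 to -0.28, unadjusted p = 0.00811 and adjusted p = 0.509 from limma), with the wild-type level 1.51-fold that of the other genotype.

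Because both probes were read on the same arrays, their difference within an array does not depend on how arrays were scaled. Cxcr1 minus Cxcr2 was 2.40 and 2.02 in wild-type against 3.17 and 3.30 under the S1pr2-/- label. The ranges did not overlap, and the mean of this difference was 1.02 larger on the arrays labelled S1pr2-/-. This pair was taken after both probes had been seen, so the difference restates their values side by side and was not tested.

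Neutrophil markers were read beside these receptors. Of 10 tested probes, 2 lower ones and 0 higher ones had an unadjusted p under 0.05, with a median log2 fold change of -0.086 and a range from -4.81 to 0.36. Their summed signal over the 75th percentile, by 1 probe per gene, was 89.6 and 100.2 in wild-type against 74.2 and 67.9 under the S1pr2-/- label. This sum weighs the genes of highest signal most, here Csf3r. By gene, 4 of 9 had both arrays labelled S1pr2-/- below both wild-type arrays, and 1 had both above. Over 15426 genes, these shares were 21.9% and 22.2%. Among the markers with the highest signal, Csf3r, the receptor for the neutrophil growth factor G-CSF, was at -0.28 in log2 fold change, S100a8 at 0.25 (standard error 0.20) and S100a9 at -1.46 (standard error 0.79). S100a8 overlapped between genotypes. S100a9, which encodes its partner protein, gave 3.50 and 3.74 against 3.15 and 1.16, and its fold was -0.47 without S1pr2-/- replicate 2. Ngp, a granule protein gene, was well above background on no array. The lowest value of that range was Retnlg, a resistin-like gene of neutrophils, named here after its value was seen. Eosinophil markers also differed in level: 4 of 5 tested probes passed an unadjusted p of 0.05, all of them lower (median -4.47), and their summed signal was 5.59 and 13.3 on the wild-type arrays against 2.35 and 3.67. The part of these cells in the Cxcr2 difference was not tested.

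The chemokines that bind Cxcr1 and Cxcr2 were measured in the same RNA, which shows only what BALF cells themselves transcribed. Cxcl3 gave -2.14 and -1.81 in wild-type against -3.98 and -3.40 under the S1pr2-/- label (log2 fold change -1.71, standard error 0.27, unadjusted p = 0.00579 and adjusted p = 0.509 from limma). Its arrays did not overlap, and its fold was the largest among the ligands tested. Cxcl1 gave -3.87 and -4.15 against -4.45 and -4.16, with both arrays labelled S1pr2-/- lower but a fold of -0.29 (standard error 0.17). Cxcl2 gave -4.66 and -4.22 against -5.37 and -4.31, its arrays overlapped, and its fold of -0.40 became 0.13 without S1pr2-/- replicate 1. Cxcl5 and Ppbp were not tested, because neither was well above background on both arrays of a genotype.

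**Figure D2:**
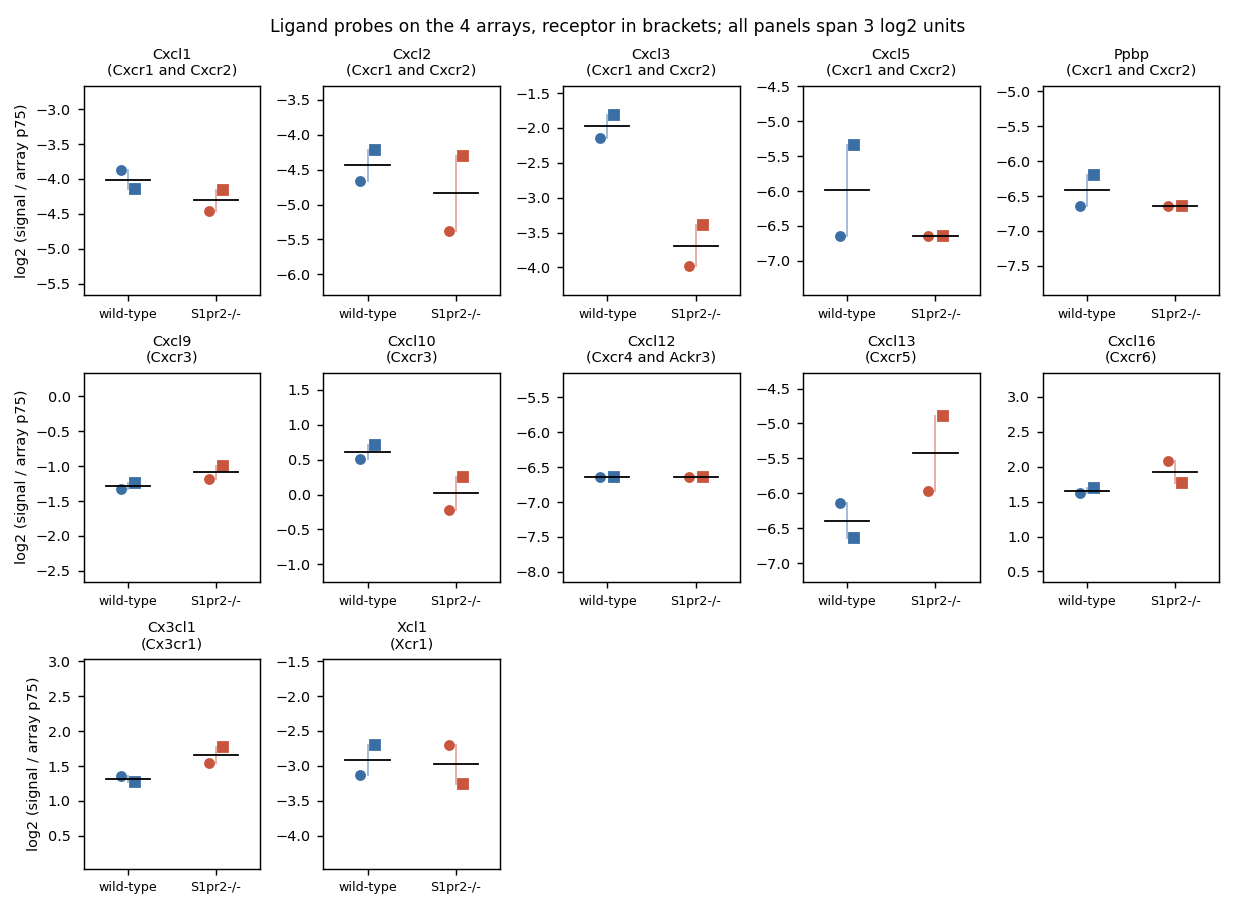
Values of the ligand genes on each array by the probe with the highest mean, as log2 of signal over the 75th percentile of the array, with the receptor in brackets, circles for replicate 1, squares for replicate 2 and a line for the mean. Cxcl3 is lower on both arrays labelled S1pr2-/- (-3.98 and -3.40 against -2.14 and -1.81), Cx3cl1 is higher on both, and Cxcl12 is at the floor on all 4 arrays.

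Cxcr3, Cxcr5 and Cxcr6 are receptors of lymphocytes. Cxcr3, found on effector T cells and NK cells, gave 0.18 and 0.69 in wild-type against 0.20 and 0.21 under the S1pr2-/- label. The arrays overlapped, and the only array that stood apart was a wild-type one. The log2 fold change of -0.23 (95% confidence interval -0.85 to 0.39, standard error 0.20, limma adjusted p 0.712) became 0.021 without wild-type replicate 2. Cxcr5, which guides B cells and follicular helper T cells, gave -2.97 and -3.36 in wild-type against -3.76 and -3.80 under the S1pr2-/- label. It was lower on both arrays labelled S1pr2-/-, by a log2 fold change of -0.61 (95% confidence interval -1.11 to -0.12, standard error 0.16, unadjusted p = 0.0285 and adjusted p = 0.515 from limma). Under a background correction fitted over all spots (normexp) this fold was 0.018, and it was -0.53 where that correction was fitted on non-control spots.

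Cxcr6, the receptor for Cxcl16 and a mark of T cells that settle in tissue, had 2 probes. The first gave 1.86 and 2.21 in wild-type against 2.37 and 1.29 under the S1pr2-/- label. The second gave 1.11 and 1.41 against 1.58 and 0.50. In both probes the highest and the lowest of the 4 arrays were the 2 labelled S1pr2-/-, so the genotypes overlapped fully. The first probe exceeded the second by 0.75 to 0.80 on each array, so both read the same differences between arrays. The log2 fold changes were -0.21 and -0.22 with standard errors of 0.45 and 0.44, and that of the first probe became 0.33 without S1pr2-/- replicate 2.

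T cell markers were read on the same arrays. Of 12 T cell probes, 4 were lower and 0 higher at an unadjusted p under 0.05, the median log2 fold change was -0.43 and all 12 were below 0, from -0.87 to -0.077. Among the highest by signal, Lck, a kinase of the T cell receptor, had a fold of -0.77, Cd3e of -0.32 and Cd3d of -0.40. The genotypes overlapped for 4 of 10 T cell genes (Cd3e, Cd3g, Cd4 and Cd247, the last 3 named after their values were seen), and none of these probes passed an adjusted p of 0.05. The summed T cell signal was 18.7 and 20.0 in wild-type against 16.6 and 12.2 under the S1pr2-/- label. NK and cytotoxic cell probes had a median of -0.038, with 0 of 12 at an unadjusted p under 0.05 in either direction. Their sum was 7.63 and 14.4 against 9.54 and 7.24, and the genotypes overlapped. B cell probes had a median of -0.66 with 0 of 7 at that level, and their sum of 2.93 and 1.60 against 1.77 and 1.44 overlapped too. The part of these cells in the receptor values was not tested.

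Of the ligands of these receptors, Cxcl9 and Cxcl10, which interferon induces, had folds of opposite sign. Cxcl10 gave 0.51 and 0.71 in wild-type against -0.22 and 0.25 under the S1pr2-/- label (log2 fold change -0.59, standard error 0.21, adjusted p = 0.527 from limma). Cxcl9 gave -1.32 and -1.25 against -1.19 and -0.997. Cxcl10 was thus lower and Cxcl9 higher on both arrays labelled S1pr2-/-, and a second Cxcl9 probe overlapped between genotypes. Cxcl13, the ligand of Cxcr5, gave -6.15 and the floor of -6.64 in wild-type against -5.96 and -4.90 under the S1pr2-/- label, and it was well above background on 1 of the 2 wild-type arrays, so its fitted fold of 0.97 depends on the floor. Cxcl16, the ligand of Cxcr6, gave 1.62 and 1.69 against 2.08 and 1.76 (log2 fold change 0.26, standard error 0.14).

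Cxcr4, which holds leukocytes in marrow and tissue by binding Cxcl12, gave -0.094 and 0.19 in wild-type against 0.0046 and 0.026 under the S1pr2-/- label. Both arrays labelled S1pr2-/- lay between the wild-type arrays. The log2 fold change of -0.033 (limma adjusted p = 0.943, standard error 0.12) had a 95% confidence interval from -0.41 to 0.34, and became 0.11 without wild-type replicate 2. Ackr3, which removes Cxcl12, was at the floor throughout and well above background on none of the arrays, with processed intensities of 3.75 to 5.55. Cxcl12 itself was at the floor on all 4 arrays in both of its probes.

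Cx3cr1, the receptor for fractalkine (Cx3cl1) on monocytes and macrophages, had 2 probes that ran the same way. The first gave 2.33 and 1.77 in wild-type against 2.90 and 2.53 under the S1pr2-/- label. The second gave -0.92 and -1.22 against -0.098 and -0.29. Both arrays labelled S1pr2-/- were above both wild-type arrays in each probe, and replicate 1 was the higher array of each genotype in both. The first showed a log2 difference of 0.67 (standard error 0.27, 95% confidence interval -0.14 to 1.48, unadjusted p = 0.0798 and adjusted p = 0.544 from limma), which is 1.59-fold. The second had 0.88 (standard error 0.15, 95% confidence interval 0.43 to 1.33, unadjusted p = 0.00756 and adjusted p = 0.509 from limma), or 1.84-fold. Of all probes tested, 99.7% had a lower log2 fold change than this second probe. Within each array, Cx3cr1 minus Cxcr2 by the first probe was 2.02 and 1.41 in wild-type against 3.05 and 2.90 under the S1pr2-/- label. This pair too was taken after both probes had been seen, so the difference restates their values and was not tested.

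Its ligand Cx3cl1, a chemokine made as a membrane-bound protein, gave 1.35 and 1.28 in wild-type against 1.55 and 1.78 under the S1pr2-/- label (log2 fold change 0.35, standard error 0.11, unadjusted p = 0.043 and adjusted p = 0.519 from limma). Receptor and ligand were thus both higher on the arrays labelled S1pr2-/-. Of 13 probes for markers of monocytes and interstitial macrophages, 3 were higher and 0 lower at an unadjusted p under 0.05, with a median log2 fold change of 0.28. Among the highest by signal, Csf1r, the receptor for macrophage growth factor, had a fold of -0.088, Apoe of 0.64 (standard error 1.01) and C1qc, a complement chain, of 0.54. Apoe overlapped between genotypes, and its fold turned to -0.57 without wild-type replicate 2. The summed signal was 224 and 149 in wild-type against 238 and 176 under the S1pr2-/- label, and without Apoe it was 152 and 135 against 172 and 141. Both sums overlapped between the genotypes, but a sum weighs the genes of highest signal most, here Csf1r. By gene, 6 of 10 had both arrays labelled S1pr2-/- above both wild-type arrays, and 0 had both below. Over 15426 genes, these shares were 22.2% and 21.9%. Alveolar macrophage probes had a median of -0.039, with 0 of 13 at an unadjusted p under 0.05. The part of monocyte-derived cells in the Cx3cr1 difference was not tested.

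Xcr1, which marks cross-presenting dendritic cells (cDC1), gave -5.56 and -5.32 in wild-type against -5.44 and -5.86 under the S1pr2-/- label. All 4 arrays read it well above background, at intensities of 44.3 to 64.8, but near the floor, and the genotypes overlapped. The log2 fold change of -0.21 (95% confidence interval -0.80 to 0.39, standard error 0.20, limma adjusted p 0.730) became 0.0017 without S1pr2-/- replicate 2. Its ligand Xcl1, made by NK cells and CD8 T cells, gave -3.14 and -2.71 against -2.70 and -3.25 and overlapped too. Among cDC1 markers, 1 of 8 probes was lower and 1 higher at an unadjusted p under 0.05, with a median of 0.17. The lower one was Batf3 (log2 fold change -0.83) and the higher one Cadm1 (0.86), both named here after their values were seen. Those with the highest signal, Naaa, Wdfy4 and Cd24a, had folds of 0.073, 0.20 and -0.33. Which of the mixed cells their RNA came from was not tested.

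**Figure D3:**
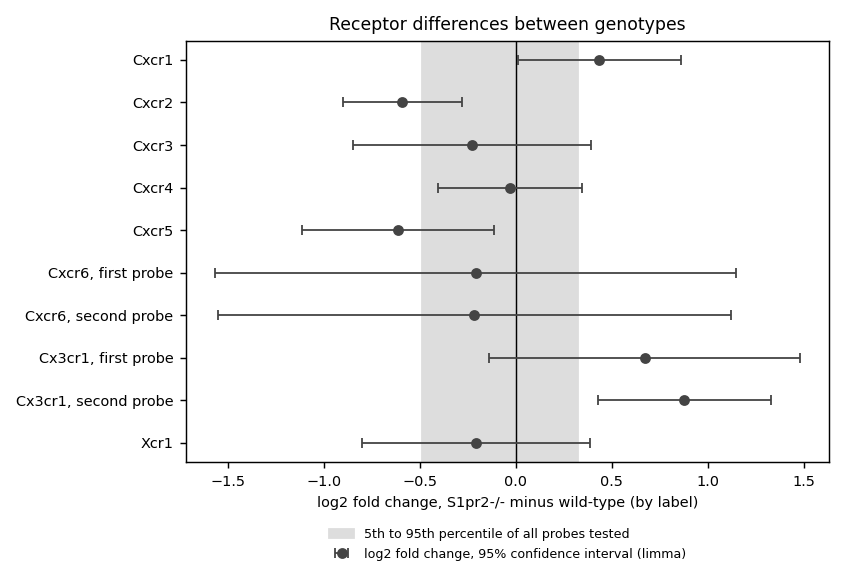
Log2 fold change of each tested receptor probe, S1pr2-/- minus wild-type by label, with its 95% confidence interval from limma. The grey band spans the 5th to 95th percentile of all 27154 probes tested (-0.49 to 0.32), and Cxcr2 and Cxcr5 lie below it, while Cxcr1 and both Cx3cr1 probes lie above it.

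The genes that carry the signal of these receptors were read next. Of 32 probes for 23 genes of G protein subunits, receptor kinases, arrestins, RGS proteins and Rac activation, 1 was higher and 0 lower at an unadjusted p under 0.05, with a median log2 fold change of -0.0068 and a range from -0.72 to 0.30. The one that was higher was Pik3r5, the regulatory subunit of the PI3-kinase that G protein beta-gamma subunits switch on. It gave 1.88 and 1.85 in wild-type against 2.13 and 2.20 under the S1pr2-/- label (log2 fold change 0.30, standard error 0.063, unadjusted p = 0.0145, adjusted p = 0.509 from limma). Its arrays did not overlap.

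The list of CC and other chemokine receptors, which also holds the atypical receptors Ackr1, Ackr2, Ackr4 and Ccrl2, gave 13 tested probes with a median of -0.18. The 10 tested probes of Ccr1 to Ccr10 alone had a median of -0.40 and ranged from -4.47 to 0.083. In both counts, 3 were lower and 0 higher at an unadjusted p under 0.05. The 3 were Ccr3, the eotaxin receptor of eosinophils, which is also on the eosinophil marker list (log2 fold change -4.47, standard error 0.69), Ccr4, a receptor of type 2 helper T cells (-1.61, standard error 0.51), and Ccr7, which leads dendritic cells and T cells to lymph nodes (-0.47, standard error 0.14). Their adjusted p from limma lay between 0.509 and 0.519. Receptor probes of the CXC, CX3C and XC classes ranged from -0.61 to 0.88, and the difference from the CC receptors was not tested.

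**Figure D4:**
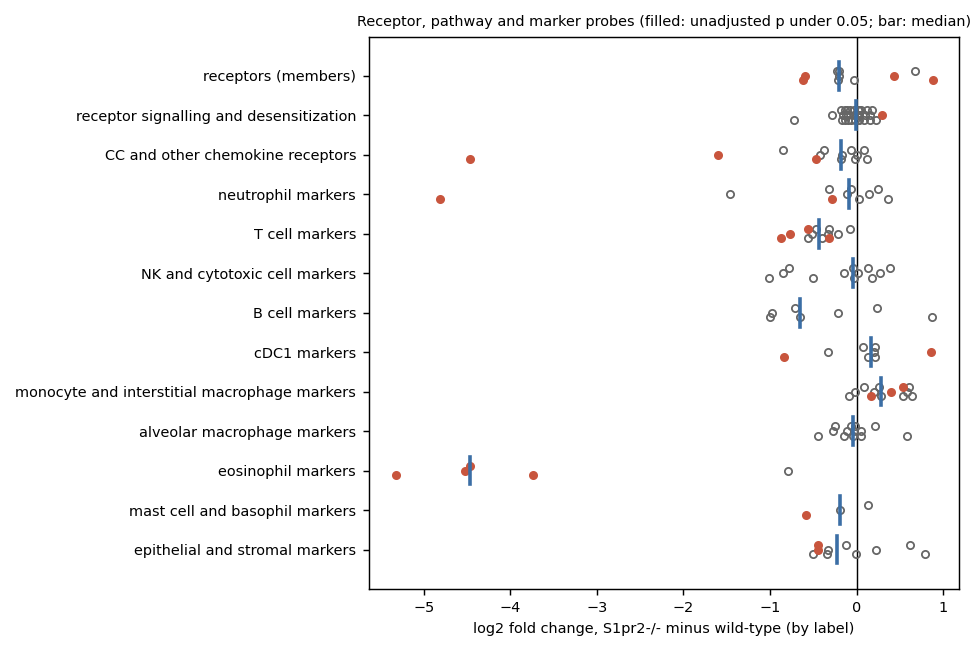
Log2 fold changes, S1pr2-/- minus wild-type by label, of the receptor probes (top row), of signalling genes and CC receptors, and of marker lists of cell types, with 1 point per tested probe, filled at an unadjusted p under 0.05, and a bar at the median of each list. The median is -4.47 for eosinophil markers, -0.43 for T cell markers, 0.28 for monocyte and interstitial macrophage markers and -0.21 for the receptors.

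The direction of Cxcr1, Cxcr2 and Cx3cr1 was kept in the alternatives that altered their folds at all (9, 9 and 10). The other 7, among them the variance and test settings, left the folds as they were. Their log2 fold changes ranged from 0.27 to 0.59 for Cxcr1, from -0.70 to -0.48 for Cxcr2 and from 0.39 to 0.95 for Cx3cr1. Leaving out an array could not have turned these directions, because the arrays of these genes did not overlap between genotypes. For Cxcr1 and Cx3cr1 the ends of the range came from leaving out one wild-type array or the other, with 0.27 for Cxcr1 and 0.39 for Cx3cr1 without wild-type replicate 2. The lowest adjusted p of any member in any alternative was 0.369, that of Cxcr2.

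**Figure D5:**
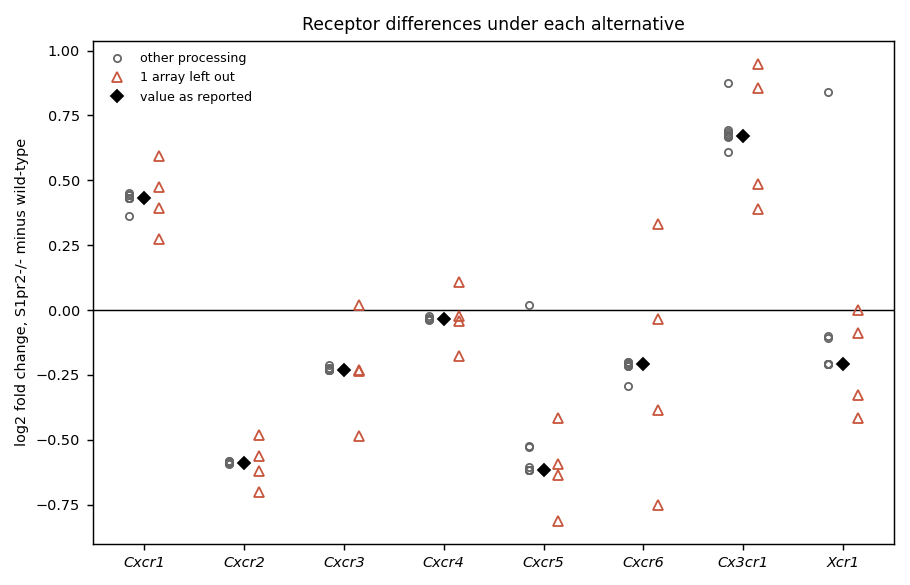
Log2 fold change of each receptor gene, S1pr2-/- minus wild-type by label, as reported (diamonds), under other processing (circles) and with 1 array left out (triangles). Cxcr1, Cxcr2 and Cx3cr1 stay on one side of 0, while Cxcr3, Cxcr4, Cxcr6 and Xcr1 cross it when 1 array is left out, and Cxcr5 and Xcr1 cross it under normexp fitted over all spots (0.018 and 0.84). A gene whose arrays do not overlap between genotypes cannot cross 0 when 1 array is left out.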

How the data were processed

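BALF cell RNA was hybridized to 4 one-color arrays on 1 slide with 1 scan, 2 per genotype by the labels. The authors deposited the intensity of each spot, background-corrected by Feature Extraction (version 10.7.3.1 in the methods, 11.0.1.1 in the file headers), and a table of normalized log2 values, used only as an alternative. Here the processed signal was divided by the 75th percentile of non-control spots of the array, floored at 0.01 and log2-transformed. Spots flagged as outliers (115 to 273 per array) were dropped and spots of a probe averaged. Probes measured on all 4 arrays were tested (27154), if both arrays of a genotype read them well above background. The test was limma 3.58.1 in R 4.3.3 (lmFit, eBayes, Benjamini-Hochberg over all probes). The fit was also run on values simulated from limma's own fitted variances. That run checks the code under the model's assumptions and not whether these hold here. Probes were named by accession through RefSeq (69.6% of 39429 probes, 98.3% of those with an NM accession); the arrays use another build, so no probe coordinates are given. The methods call the RNA samples of a genotype independent without saying whether they came from separate mice, so p-values measure only the spread between these samples.

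The members and all lists were chosen with earlier results of these data known. The text names every member probe, each ligand by its probe of highest mean, signalling genes and CC receptors at an unadjusted p under 0.05, and up to 3 markers of highest signal per list. Some further markers were named after their values were seen, as marked there. Cxcl11, Ly6g, Itgae and Ly6c2 matched no probe by accession. Tried as alternatives were quantile normalization, the percentile over probes above background, normexp (on the median signal, since the columns hold no mean signal), the authors' log2 values, no floor, other filters, flagged spots kept, the methods' t-test, a trend in the variance, a replicate block, the other probe of a gene and each array left out. A second normexp fit was added after the data were seen.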

Additional observations from a re-analysis of the deposited data

How the results depend on the processing

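No member probe was called at an adjusted p under 0.05 under any alternative run. The counts at an unadjusted p under 0.05 (2 lower, 2 higher) became 1 and 1 with the percentile over probes above background, with normexp fitted over all spots, without a filter on dim probes and with the methods' t-test. With 1 array left out, 1 to 3 probes were lower and 0 to 3 higher (0 without S1pr2-/- replicate 1), where the array left alone was taken to vary as the rest do. Leaving out wild-type replicate 2 turned Cxcr3 to 0.021 (lowest -0.48 over the arrays left out in turn) and Cxcr4 to 0.11 (lowest -0.18), and leaving out S1pr2-/- replicate 2 turned Cxcr6 to 0.33 (lowest -0.75) and Xcr1 to 0.0017 (lowest -0.42).

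Normexp fitted over all spots turned Cxcr5 to 0.018 and Xcr1 to 0.84, left 1 gene with both arrays labelled S1pr2-/- below, and moved the median of all probes to 0.19, with 127 probes lower and 159 higher. In that fit the estimated background mean of S1pr2-/- replicate 1 was -418, against 4.72 to 8.15 on the other arrays, and the signal of one control spot there minus its local background was -9354. Fitted on non-control spots, an alternative chosen after seeing the data, the estimates were 5.29 to 8.19, Cxcr5 was -0.53 and Xcr1 -0.11, 2 member probes were lower and 3 higher, and 2 of all probes passed an adjusted p of 0.05. Xcr1 was at the floor on all arrays with the percentile over probes above background and has no value there. The replicate block kept each fold and gave 2 probes lower and 3 higher, with Cx3cr1 at p = 0.0104 (adjusted p = 0.530, limma); same-numbered arrays correlated at 0.19 in their deviations over 2 pairs and share only a number. Dim probes such as Xcr1 and Ackr3 are limited by their signal over background.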
